A study of Rattus norvegicus with 12 samples.

Results

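Glycolysis and glucose uptake genes were followed in cultured neonatal rat cardiac fibroblasts after depletion of Yap, Wwtr1 or both. The 10 genes were chosen by name: Slc2a1, Hk1, Hk2, Pfkl, Pfkp, Aldoa, Pgk1, Eno1, Ldha and Slc16a3. All 10 were found by symbol among the 12271 genes of the table, and all passed the filter on low values, a mean of at least 10 normalized counts (gene counts scaled for library size), which left 11871 genes.

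The cells came from ventricles of Sprague Dawley rats 2 days after birth and were grown in medium that, per the labels, held 15% serum. All groups received siRNA, small RNA duplexes that lower the messenger RNA they match, with 2 siRNAs per target at 25 nM each, and were collected, per the labels, 48 hours after transfection. The methods of the study instead describe a change to medium with less serum on the day after transfection and a later collection. The groups were negative siRNA (MISSION siRNA Universal Negative Control #1 and #2), Yap siRNA, Wwtr1 siRNA and both together (double knockdown), with 3 libraries in each and 12 in all. For the double knockdown, the label that lists siRNAs gives those for Wwtr1 alone. With siRNAs for both targets at this dose, the double knockdown would hold more siRNA than any other group. Loss of both genes cannot be told apart from that load in this design. The design text speaks of myocytes where the title and sample labels speak of fibroblasts. The study describes each replicate as cells from independent pooled litters.

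Glucose enters cells through carriers such as Slc2a1 (GLUT1) and is trapped by hexokinases. Phosphofructokinase commits it to glycolysis, aldolase splits it, and phosphoglycerate kinase and enolase act in the steps that return ATP. Lactate dehydrogenase A turns pyruvate into lactate, which Slc16a3 (MCT4) exports. Transcription factors of the HIF and MYC families are known to drive many of these genes, and fibroblasts that become myofibroblasts are known to raise glycolysis. Yap, encoded by Yap1, and its relative Wwtr1, or Taz, are coactivators that bind DNA through TEAD factors.

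Slc2a1, which rose in the double knockdown, and Eno1, which fell there, are shown here by the 250 bases before their start sites, since of the 10 genes they had the largest rise and the largest fall that passed the test against negative siRNA in that group. Sequences are RefSeq's for build GRCr8, read 5′ to 3′ on the plus strand. Capitals mark the HIF core (ACGTG or GCGTG) and the TEAD motif (GGAATG), each on either strand. Eno1 has a pair of annotated starts.
Slc2a1 chr5:138002272-138002521: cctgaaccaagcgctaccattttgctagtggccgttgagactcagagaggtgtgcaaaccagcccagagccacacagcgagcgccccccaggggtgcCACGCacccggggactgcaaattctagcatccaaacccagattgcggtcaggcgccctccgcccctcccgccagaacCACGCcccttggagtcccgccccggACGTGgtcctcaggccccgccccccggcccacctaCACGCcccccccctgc
Eno1 chr5:166002617-166002866: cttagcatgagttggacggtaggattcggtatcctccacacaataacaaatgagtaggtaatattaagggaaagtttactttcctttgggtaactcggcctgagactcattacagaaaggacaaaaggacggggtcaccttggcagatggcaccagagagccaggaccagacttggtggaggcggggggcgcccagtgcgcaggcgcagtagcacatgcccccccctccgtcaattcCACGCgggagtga
Eno1 chr5:166003111-166003360: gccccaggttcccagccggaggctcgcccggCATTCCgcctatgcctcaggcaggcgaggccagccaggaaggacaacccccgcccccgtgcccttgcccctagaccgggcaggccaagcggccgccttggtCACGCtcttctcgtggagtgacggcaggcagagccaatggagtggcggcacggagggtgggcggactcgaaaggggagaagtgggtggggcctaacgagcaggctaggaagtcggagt
The Slc2a1 window held 4 HIF cores and no TEAD motif, whereas each Eno1 window held 1 HIF core and the second also held a TEAD motif. The Ldha window likewise held 4 HIF cores and no TEAD motif, and Ldha did not pass in any comparison. Of the 10 genes, 9 had at least 1 promoter entry, with 13 windows in all, and Pgk1 had no entry. The HIF core was present in 8 of the 13 windows (61.5%) and in 36.7% of all 33469 windows of this length. The TEAD motif was present in 2 of 13, those of Eno1 and Slc16a3, against 12.1% of all windows. The E-box CACGTG bound by MYC, which contains the letters ACGTG, was present in 1 of 13, that of Ldha, against 5.59%. These matches are letters only and no binding was measured.

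The normalized counts of the targeted genes checked the labels. Mean Yap1 was 3267 with negative siRNA, 578 with Yap siRNA and 975 after double knockdown. Mean Wwtr1 was 2403 with negative siRNA, 570 with Wwtr1 siRNA and 868 after double knockdown. Double knockdown replicate 3 stood apart, with Yap1 at 1474 against 713 and 739 in its group. Summed macrophage markers were also highest there, at 24667 normalized counts against 4015 in the lowest library of that group, and none of the 8 was at 0 in every library. None of these markers passed against negative siRNA in any comparison in limma (1 at an unadjusted p under 0.05, in the double knockdown). It held the highest value of its group for 8 of the 10 genes and the lowest for Hk1 and Pfkp. Without it, double knockdown values against negative siRNA are given below for those of the 10 genes that passed or that it moved most. Against the single knockdowns only lost calls are named. Fibroblast markers summed to between 2656753 and 3848347 normalized counts per library and cardiomyocyte markers to between 40982 and 88494. All 18 interferon-induced genes tested rose both with Yap siRNA and after double knockdown, as did 17 of 18 after Wwtr1 siRNA, led by Mx2 (log2 5.79) with Yap siRNA, Mx2 (6.23) with Wwtr1 siRNA and Oas2 (7.61) in the double knockdown. Summed interferon-induced genes were at 14281 to 22460 normalized counts with negative siRNA and at 157800 to 199062 after double knockdown. Of 8 fibroblast markers 6 passed after double knockdown, 3 higher (Dcn, Pdgfra, Postn) and 3 lower (Vim, Col1a2, Tcf21), and of 8 endothelial markers 4 rose (Kdr, Cdh5, Tek, Vwf), against 32.8% of all genes in this comparison (17.1% higher), their sum staying between 3200 and 5802 normalized counts over all libraries. The part of these changes in the results below was not tested. In these bulk samples fewer cells of a type and less RNA per cell cannot be told apart.

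**Figure D1:**
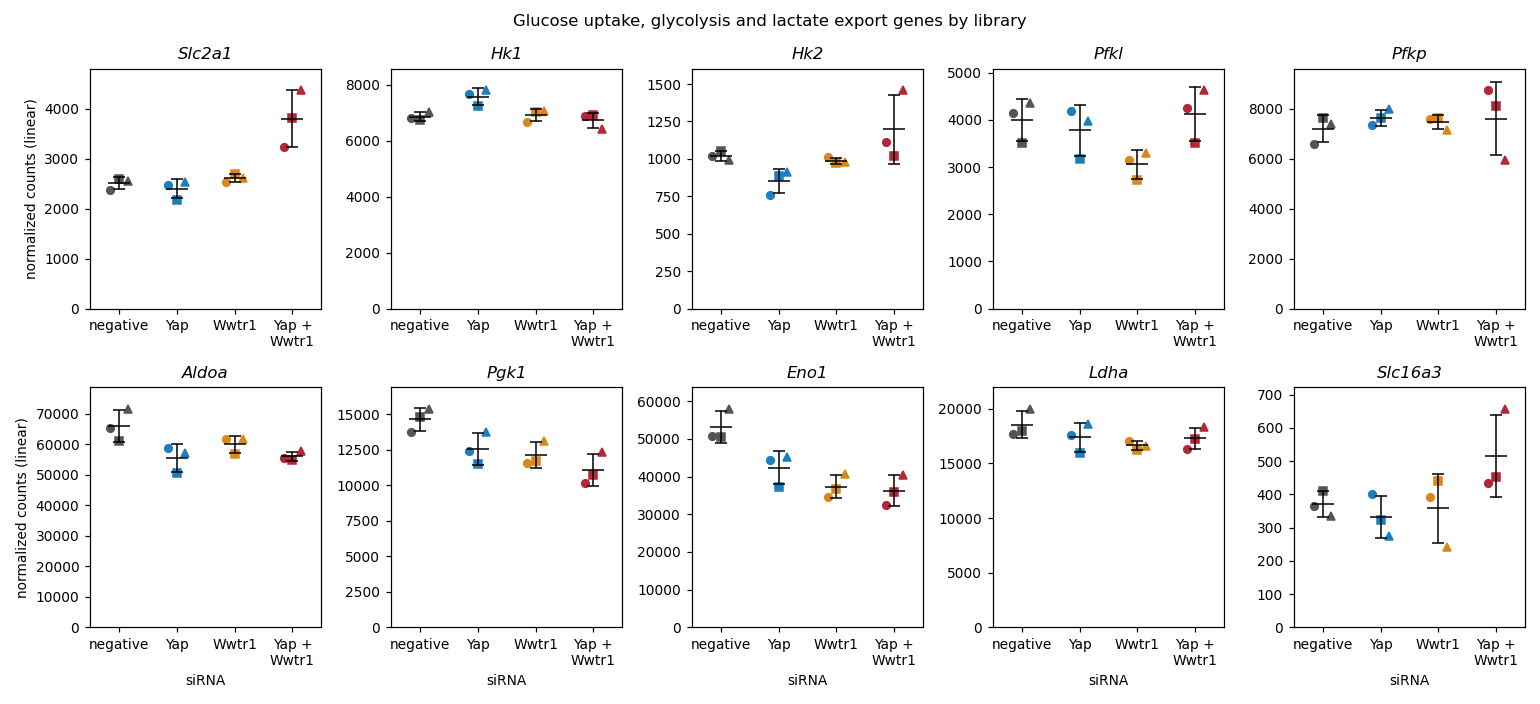
Normalized counts (linear axes from 0) of the 10 genes in each library, by siRNA group. Circles, squares and triangles are replicates 1, 2 and 3, and the bars are the mean ± SD of 3 libraries. The 3 double knockdown values of Slc2a1 (3237 to 4370) lie above all other libraries, whereas those of Eno1 (32423 to 40513) lie below all 3 negative siRNA libraries (50484 to 57905).

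The double knockdown was compared with negative siRNA first. Of the 10 genes, 3 passed the test (adjusted p under 0.05 in limma): Slc2a1 rose, and Pgk1 and Eno1 fell. Across all genes tested 32.8% passed, so that 3 of 10 was near the background. By direction the background was 17.1% higher and 15.6% lower, against 1 and 2 of 10. Libraries that did not overlap between the groups were seen for 5 of the 10 genes (2 higher, 3 lower), against 44.6% of all genes. The median log2 fold change was 0.006 over the 10 genes and 0.004 over all genes tested.

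Slc2a1, the basal glucose carrier of most cells, was at 2384, 2602 and 2564 normalized counts with negative siRNA. It was at 2477, 2178 and 2536 with Yap siRNA and at 2527, 2686 and 2605 with Wwtr1 siRNA. In the double knockdown it was at 3237, 3811 and 4370. The lowest double knockdown library thus exceeded the highest library of every other group, and the other 3 groups overlapped one another. The mean was 51.2% higher in the double knockdown than with negative siRNA, 0.59 on the log2 scale (limma adjusted p 0.0011, SE 0.10). Against Yap siRNA the log2 difference was 0.66 (limma adjusted p 0.0018, SE 0.10) and against Wwtr1 siRNA 0.54 (limma adjusted p 0.0038, SE 0.10). Single knockdown gave log2 values of -0.07 with Yap siRNA (95% interval -0.29 to 0.15) and 0.05 with Wwtr1 siRNA (-0.17 to 0.27), neither of which passed. Without double knockdown replicate 3, the highest of its group, the value against negative siRNA was 0.48 (limma adjusted p 0.0022). The excess of the double knockdown over the sum of the single effects was 0.61 (limma adjusted p 0.0654, SE 0.14). It missed the threshold, and 1.03% of all genes passed this interaction test. It passed without double knockdown replicate 1 (0.72, limma adjusted p 0.0278) and with a replicate block over all libraries (0.0479).

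Eno1, the enolase of most tissues, was at 50845, 50484 and 57905 normalized counts with negative siRNA. It was at 44478, 37335 and 45296 with Yap siRNA. With Wwtr1 siRNA it was at 34558, 36743 and 40557, and in the double knockdown at 32423, 35897 and 40513. Every library of each knockdown group lay below every negative siRNA library, and the Wwtr1 siRNA and double knockdown libraries overlapped. Eno1 fell by 0.55 on the log2 scale in the double knockdown (limma adjusted p 0.0022, SE 0.11), and by 0.63 without replicate 3 of that group. With Wwtr1 siRNA it fell by 0.51 (limma adjusted p 0.0120, SE 0.11), the only 1 of the 10 genes to pass there, where 8.96% of all genes passed. That call was lost without negative siRNA replicate 3 (adjusted p 0.0581), Wwtr1 siRNA replicate 1 (0.0558) or Wwtr1 siRNA replicate 2 (0.0504). The value with Yap siRNA was -0.33 (limma adjusted p 0.112). The double knockdown and Wwtr1 siRNA differed by -0.04 (95% interval -0.28 to 0.19).

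Pgk1, which makes ATP from bisphosphoglycerate, was at 13765, 14803 and 15371 normalized counts with negative siRNA and at 10168, 10747 and 12326 in the double knockdown. It was at 12389, 11474 and 13724 with Yap siRNA and at 11577, 11678 and 13151 with Wwtr1 siRNA. Each knockdown group lay wholly below negative siRNA, and the 3 knockdown groups overlapped. Pgk1 fell by 0.41 in the double knockdown (limma adjusted p 0.0054, SE 0.09). Without double knockdown replicate 3 the value was -0.48. The single knockdowns gave -0.23 with Yap siRNA (limma adjusted p 0.191) and -0.27 with Wwtr1 siRNA (limma adjusted p 0.0894, and 0.0489 without double knockdown replicate 3).

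Aldoa, the muscle and fibroblast aldolase, was at 65263, 60983 and 71519 normalized counts with negative siRNA and at 55636, 54918 and 57659 in the double knockdown. It was at 58781, 50443 and 57259 with Yap siRNA and at 61667, 56703 and 61602 with Wwtr1 siRNA. The Yap siRNA and double knockdown libraries lay below negative siRNA, whereas those of Wwtr1 siRNA overlapped it. No comparison passed: the double knockdown gave -0.23 (95% interval -0.41 to -0.05, limma adjusted p 0.0535) and Yap siRNA -0.25 (limma adjusted p 0.124). The double knockdown value did pass when only genes whose mean reached 100 normalized counts were tested (limma adjusted p 0.0469), with TMM scaling (0.0434), with a replicate block over all libraries (0.0230), and without negative siRNA replicate 2 (0.0413) or Yap siRNA replicate 2 (0.0425).

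Over the 10 genes, libraries did not overlap with negative siRNA for 5 genes with Yap siRNA (26.1% of all genes) and for 4 with Wwtr1 siRNA (32.7%), of which 1 was higher, Hk1 with Yap siRNA. The median log2 value was -0.13 with Yap siRNA and -0.11 with Wwtr1 siRNA, against -0.004 and 0.005 over all genes. Between Yap and Wwtr1 siRNA 2 genes did not overlap (31.9% of all genes). The double knockdown did not overlap with Yap siRNA for 4 genes (30.5%) or with Wwtr1 siRNA for 3 (37.3%).

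Some of these calls differed in a fit of the 9 negative, Yap and Wwtr1 siRNA libraries with the replicate number as a block. The pairing by number was taken from these data and is given by no label. The same 9 libraries without a block gave 0 of the 10 genes and 5.69% of all genes for Yap siRNA, 1 (Eno1) and 11.1% for Wwtr1 siRNA, and 0 and 11.1% between them. With Yap siRNA none of the 10 genes passed without the block, where 4.8% of all genes did and 4 of the 10 had an unadjusted p under 0.05. With the block 3 of 10 passed against 16% of all genes, each lower: Eno1 (limma adjusted p 0.0070), Aldoa (0.0111) and Pgk1 (0.0178). With Wwtr1 siRNA the block gave 3 of 10 against 21.3% of all genes, each lower: Eno1 (limma adjusted p 4e-04), Pfkl (0.0012) and Pgk1 (0.0057). Between Yap and Wwtr1 siRNA no gene of the 10 passed without the block (8.79% of all genes, 2 of 10 at an unadjusted p under 0.05). Pfkl passed with it, higher with Yap siRNA by 0.30 (limma adjusted p 0.0054, 22.6% of all genes).

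The hexokinases and phosphofructokinases are pairs of related genes. Hk1, the constitutive hexokinase, was at 6795, 6720 and 7032 normalized counts with negative siRNA and at 7679, 7221 and 7793 with Yap siRNA. It was at 6681, 7026 and 7041 with Wwtr1 siRNA and at 6864, 6900 and 6403 in the double knockdown. The Yap siRNA libraries lay above the other 9, by 0.14 over negative siRNA (95% interval 0.02 to 0.27, limma adjusted p 0.196). No comparison of Hk1 passed.

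Hk2, the inducible hexokinase, was at 1016, 1054 and 989 normalized counts with negative siRNA and at 759, 888 and 911 with Yap siRNA. It was at 1010, 969 and 981 with Wwtr1 siRNA and at 1113, 1018 and 1458 in the double knockdown. Yap siRNA was the lowest group, without overlap with any other, whereas the double knockdown overlapped negative siRNA. Hk2 was higher in the double knockdown than with Yap siRNA by 0.48 (limma adjusted p 0.0242, SE 0.12). Hk2 and Slc2a1 were the 2 of 10 genes that passed there, against 13.8% of all genes. The call of Hk2 was lost without Yap siRNA replicate 1 (0.39, limma adjusted p 0.0770). Against negative siRNA Hk2 gave -0.26 with Yap siRNA (limma adjusted p 0.259) and 0.21 after double knockdown (limma adjusted p 0.2001). The latter was 0.063 without double knockdown replicate 3, the highest library at 1458.

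Pfkl, the liver-type phosphofructokinase, was at 4146, 3512 and 4364 normalized counts with negative siRNA and at 3145, 2725 and 3310 with Wwtr1 siRNA. It was at 4191, 3162 and 3981 with Yap siRNA and at 4255, 3503 and 4628 in the double knockdown. Replicate 2 was the lowest library in each group, and the Wwtr1 siRNA libraries lay below all of negative siRNA and of the double knockdown. Without the block Wwtr1 siRNA gave -0.39 (limma adjusted p 0.0980, SE 0.13). Pfkl was higher in the double knockdown than with Wwtr1 siRNA by 0.43 (limma adjusted p 0.0423, SE 0.13), which made it and Slc2a1 2 of 10 against 19.9% of all genes. That call was lost when any of 7 libraries was left out (negative siRNA replicate 1, Yap siRNA replicate 3, Wwtr1 siRNA replicates 1, 2 and 3 and double knockdown replicates 1 and 3), with adjusted p of up to 0.151. The double knockdown and negative siRNA differed by 0.04 (95% interval -0.25 to 0.33).

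Pfkp, the platelet-type phosphofructokinase, was at 6578, 7637 and 7404 normalized counts with negative siRNA. It was at 7333, 7612 and 7982 with Yap siRNA, at 7589, 7637 and 7137 with Wwtr1 siRNA and at 8734, 8096 and 5943 in the double knockdown. The groups overlapped in every comparison, and the double knockdown held both the highest and the lowest of the 12 values. Its log2 difference from negative siRNA was 0.06 (95% interval -0.20 to 0.32). Without double knockdown replicate 3, the lowest library at 5943, it was 0.23 and passed (limma adjusted p 0.0451).

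Lactate production and export came last in the pathway. Ldha was at 17680, 17966 and 19974 normalized counts with negative siRNA and at 17635, 15979 and 18583 with Yap siRNA. It was at 17036, 16250 and 16636 with Wwtr1 siRNA and at 16326, 17259 and 18292 in the double knockdown. The Wwtr1 siRNA libraries lay below negative siRNA, and the other groups overlapped it. Ldha gave log2 differences of -0.09 for Yap siRNA, -0.15 for Wwtr1 siRNA and -0.10 for the double knockdown, none of which passed. Their 95% intervals together spanned -0.32 to 0.07.

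Slc16a3, the lactate exporter of glycolytic cells, had the largest standard errors of the 10 genes. It was at 365, 411 and 334 normalized counts with negative siRNA and at 433, 453 and 656 in the double knockdown. It was at 400, 321 and 275 with Yap siRNA and at 392, 441 and 242 with Wwtr1 siRNA. The double knockdown lay above negative siRNA without overlap, and the single knockdowns overlapped it. The log2 value was 0.45 in the double knockdown (SE 0.23, 95% interval -0.05 to 0.96, limma adjusted p 0.158), which did not pass. Without double knockdown replicate 3, its highest library at 656, the value was 0.26. The difference from Yap siRNA, 0.62 (limma adjusted p 0.0997), passed only without Wwtr1 siRNA replicate 3 (0.0492).

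**Figure D2:**
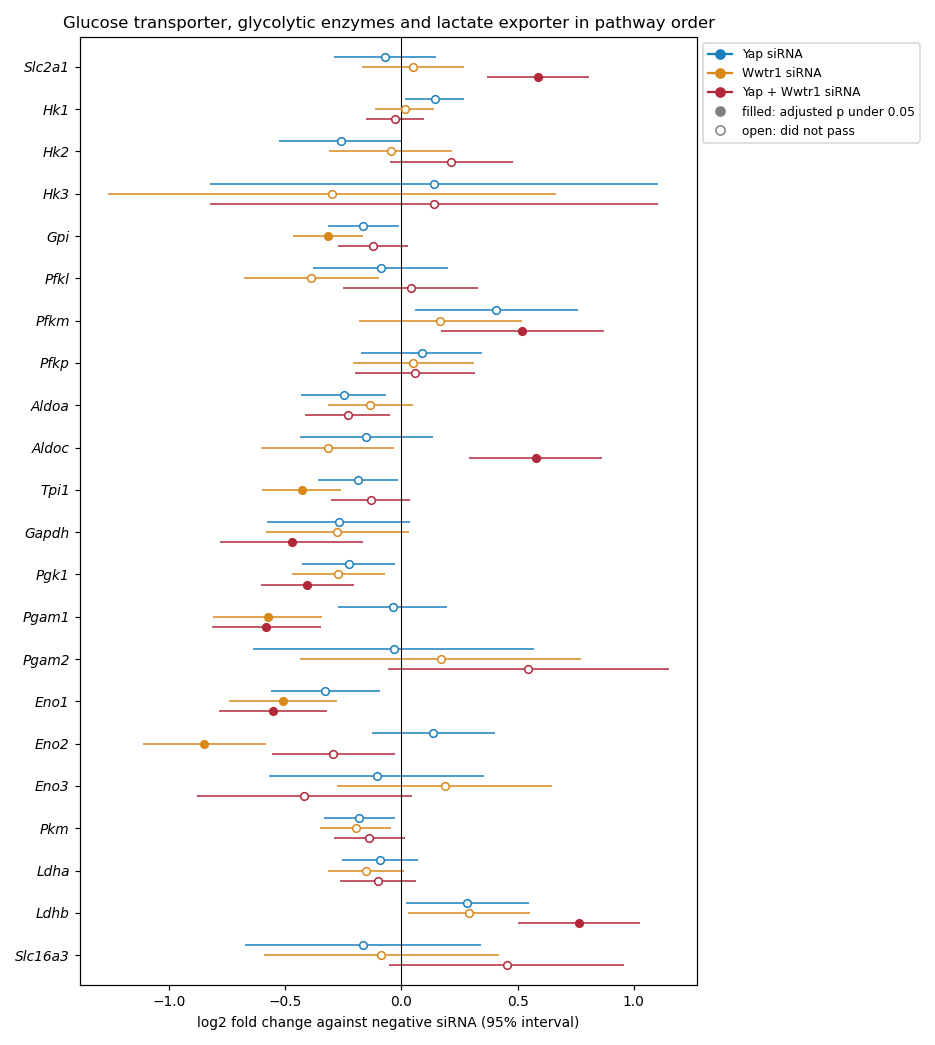
Log2 fold changes against negative siRNA with 95% intervals (horizontal axis, limma fit without block) for the glucose carrier, the glycolytic enzymes, the lactate dehydrogenases and the lactate exporter, from uptake at the top to export at the bottom. Filled points passed an adjusted p of 0.05. In the double knockdown the passing values are higher for Slc2a1, Pfkm, Aldoc and Ldhb and lower for Gapdh, Pgk1, Pgam1 and Eno1.

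The other glycolytic enzymes were compared with the 10 genes. Of 12 tested, none passed with Yap siRNA (5 at an unadjusted p under 0.05, and 4 with the replicate block), 4 fell with Wwtr1 siRNA, and 3 rose and 2 fell after double knockdown. Over all genes 4.8%, 8.96% and 32.8% passed in these comparisons (16% and 21.3% for the single knockdowns with the block), and the list counts below are to be read against the same shares. Their median log2 values were -0.07, -0.29 and -0.13, against about 0 over all genes tested. With Wwtr1 siRNA the falls were those of Eno2 (the neuronal enolase, -0.85, limma adjusted p 0.0016, SE 0.12), Pgam1 (phosphoglycerate mutase, -0.58, limma adjusted p 0.0067, SE 0.11), Tpi1 (triose phosphate isomerase, -0.43, limma adjusted p 0.0060, SE 0.08) and Gpi (glucose phosphate isomerase, -0.32, limma adjusted p 0.0152, SE 0.07). The call of Gpi was lost when any of 4 libraries was left out (negative siRNA replicates 1 and 3, Wwtr1 siRNA replicates 2 and 3).

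In the double knockdown Pgam1 fell by 0.58 (limma adjusted p 0.0017) and Gapdh by 0.47 (limma adjusted p 0.0234). Both act in the second phase of glycolysis, as do Pgk1 and Eno1. Pgam1 was at 13412, 13060 and 15273 normalized counts with negative siRNA and at 8344, 8480 and 11283 in the double knockdown. Tpi1 gave -0.13 (limma adjusted p 0.216), Gpi -0.12 (0.197) and Pkm, the pyruvate kinase of these cells, -0.14 (0.151), none of which passed. The rises were those of Ldhb (0.76, limma adjusted p 0.00064, SE 0.12), the heart-type lactate dehydrogenase, Aldoc (0.58, limma adjusted p 0.0058, SE 0.13), the brain-type aldolase, and Pfkm (0.52, limma adjusted p 0.0276, SE 0.16), the muscle-type phosphofructokinase. Gapdh and Pfkm each lost the call without negative siRNA replicate 1 or 3 or double knockdown replicate 1 or 2. With the block, Gapdh (limma adjusted p 0.0125 with Yap siRNA, 0.0088 with Wwtr1 siRNA) and Ldhb (0.0134 and 0.0095) passed with both single knockdowns, and Tpi1 with Yap siRNA (0.0433). The count of 5 in the double knockdown was 3 without negative siRNA replicate 1 or 3 or double knockdown replicate 1.

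Over the 20 glycolytic enzymes and lactate dehydrogenases together, 7 passed in the double knockdown, 3 higher and 4 lower, with a median of -0.11, near the 32.8% of all genes. With Wwtr1 siRNA 5 passed, all lower, with a median of -0.23. Cardiomyocyte markers were given as a check, since Pfkm and Ldhb are also muscle enzymes. In the double knockdown 3 of these 8 markers rose, Myh6 (1.83), Tnni3 (1.12) and Myl2 (1.09), and 2 had log2 values below 0. Of all genes 17.1% passed higher in this comparison. The summed level of the 8 markers ran from 66352 to 88494 normalized counts, against 40982 to 71336 with negative siRNA. It was 48163 to 79014 with Yap siRNA and 43529 to 80225 with Wwtr1 siRNA, so the groups overlapped. The part of these markers in the rises of Pfkm and Ldhb was not tested. Processed copies of Aldoa, Eno1, Gapdh, Ldha, Pgam1, Pgk1 and Tpi1 exist in mammalian genomes, and how reads that match several places were assigned is not given in the sources used here, so these values are uncertain to that extent.

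Ratios of related genes within a library do not depend on scaling between libraries. The Hk2 to Hk1 ratio was 0.149 ± 0.0081 with negative siRNA (SD, n = 3 for each group). It was 0.113 ± 0.013 for Yap siRNA, 0.143 ± 0.0073 for Wwtr1 siRNA and 0.179 ± 0.043 for the double knockdown. It differed among the 4 groups in an exact permutation test over 369600 assignments (p 0.0024, adjusted p 0.0096 over 4 ratios). The Yap siRNA libraries had the 3 lowest ratios of all 12. The log2 difference between the double knockdown and negative siRNA was 0.24, and 0.06 without double knockdown replicate 3. The Ldha to Ldhb ratio was 7.82 ± 1.69 for negative siRNA, 6.0 ± 1.09 for Yap siRNA, 5.67 ± 0.34 for Wwtr1 siRNA and 4.28 ± 0.77 for the double knockdown. It also differed among the groups (exact permutation p 0.0057, adjusted p 0.0114), and the double knockdown libraries lay below the other 9. That call was lost without negative siRNA replicate 3 (exact adjusted p 0.0552), double knockdown replicate 1 (0.0609) or double knockdown replicate 2 (0.0513). The Pfkp to Pfkl ratio (exact permutation adjusted p 0.308) and the Slc16a3 to Slc16a1 ratio (0.306) did not pass, nor did they when groups were permuted within replicate numbers (0.169 and 0.205). In each replicate number of the 3 groups taken as paired, Pfkp/Pfkl was lowest with negative siRNA and highest with Wwtr1 siRNA. For negative, Yap and Wwtr1 siRNA it was 1.59, 1.75 and 2.41 in replicate 1 and 2.17, 2.41 and 2.80 in replicate 2. In replicate 3 it was 1.70, 2.00 and 2.16. This order was not tested on its own. Slc16a1 (MCT1) is the related carrier.

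**Figure D3:**
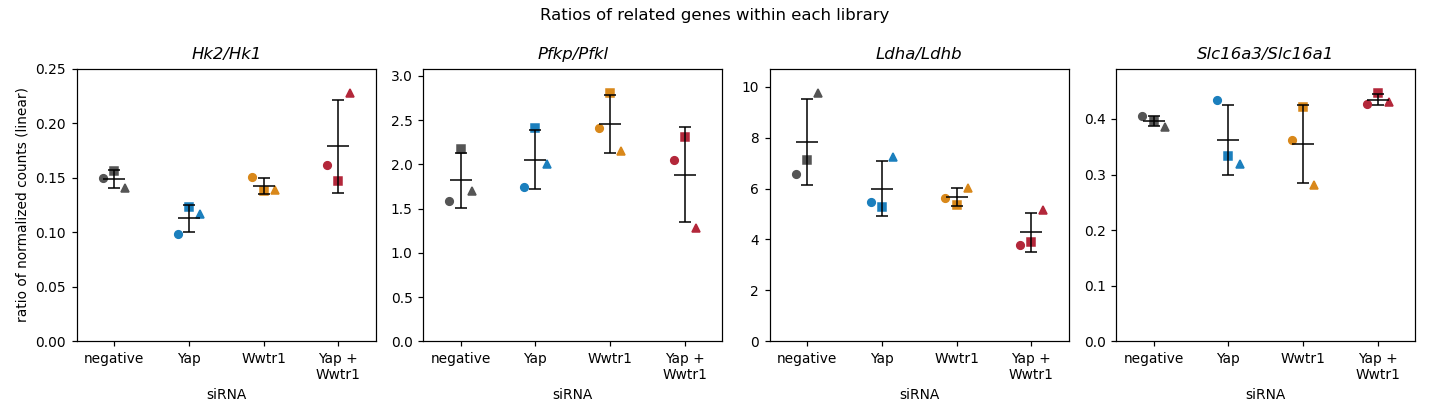
Ratios of normalized counts of related genes in each library (linear axes from 0), by siRNA group, with the mean ± SD of 3 libraries and replicates 1, 2 and 3 as circles, squares and triangles. The Hk2/Hk1 ratio is lowest with Yap siRNA (mean 0.113) and the Ldha/Ldhb ratio is lowest in the double knockdown (mean 4.28).

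Other genes of glucose and lactate transport moved in both directions. The list held 9 carriers, among them Slc2a13, which carries myo-inositol, and Bsg, Txnip and Arrdc4, which act on carriers. Of its 12 genes, 1 passed for Yap siRNA, 2 for Wwtr1 siRNA and 6 for the double knockdown, 4 higher and 2 lower, against 4.8%, 8.96% and 32.8% of all genes. Slc2a12 (GLUT12) rose by 1.44 in the double knockdown (limma adjusted p 0.00032, SE 0.21) and by 0.89 with Wwtr1 siRNA (limma adjusted p 0.0193, lost without negative siRNA replicate 3 or Wwtr1 siRNA replicate 1 or 2). It was at 163, 166 and 119 normalized counts with negative siRNA and at 422, 490 and 318 in the double knockdown. Slc2a3 (GLUT3), a carrier of high affinity, went the other way. It was at 821, 704 and 917 with negative siRNA, at 530, 513 and 597 with Yap siRNA and at 527, 482 and 371 in the double knockdown, and fell by 0.57 with Yap siRNA (limma adjusted p 0.0407) and by 0.83 after double knockdown (limma adjusted p 0.0009). Of 12 fits with 1 library left out, 8 lost its call for Yap siRNA, as did the fit without a variance trend. It passed without negative siRNA replicate 2, Yap siRNA replicate 3 or double knockdown replicate 1 or 3. Slc2a8 (0.77), Slc2a4 (GLUT4, the insulin-responsive carrier of muscle and fat, 0.77) and Slc16a7 (MCT2, 0.58) also rose in the double knockdown and Slc2a13 (-0.44) fell. The calls of Slc16a7, Slc2a13 and Slc2a4 were lost in 5, 4 and 3 of the 12 fits, each of which left out a negative siRNA or double knockdown library. Slc16a7 passed with Wwtr1 siRNA too (0.71), which 9 of those 12 fits and the fit without a trend lost. Without negative siRNA replicate 2 the count in the double knockdown was 3, not 6. The count for Yap siRNA was 2, not 1, without double knockdown replicate 3. With the block, 3 genes of the list passed with Yap siRNA (16% of all genes) and 4 with Wwtr1 siRNA (21.3%).

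Enzymes that branch from glycolysis were mostly below the threshold. Of 8 regulators of fructose bisphosphate and gluconeogenic genes, none passed with either single knockdown (1 at an unadjusted p under 0.05 in each, and 1 with the block with Yap siRNA). In the double knockdown Pfkfb3, whose product activates phosphofructokinase, rose by 0.42 (limma adjusted p 0.0193, lost without negative siRNA replicate 3 or double knockdown replicate 1), and Pck2, the mitochondrial phosphoenolpyruvate carboxykinase, fell by 0.40 (limma adjusted p 0.0040). Of 14 genes of pyruvate entry into mitochondria, Pdk1 fell with Wwtr1 siRNA (-0.44, limma adjusted p 0.0361, lost in 5 of 12 fits), and 4 passed in the double knockdown, against 32.8% of all genes. Pdk2 (0.81, limma adjusted p 0.0022) and Pdk3 (0.51, limma adjusted p 0.0447, lost in 8 of 12 fits, without a trend and with a block over all libraries) rose. Both are kinases that inhibit pyruvate dehydrogenase. Subunits of that enzyme fell, Pdha1 by 0.27 (limma adjusted p 0.0104) and Dld by 0.26 (limma adjusted p 0.0255, lost in 3 of 12 fits). None of these 14 passed with Yap siRNA (1 at an unadjusted p under 0.05), whereas 4 did with the block. Of 8 pentose phosphate pathway genes, only Rpia passed without the block, lower by 0.41 with Wwtr1 siRNA and by 0.34 in the double knockdown, and these calls were lost in 8 and 9 of 12 fits and with a block over all libraries, the first also without a trend or a filter. With the block 2 of the 8 passed with Wwtr1 siRNA. In the double knockdown 2 of the 8 passed when replicate 3 of that group was left out.

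The HIF and MYC lists hold known regulators of glycolytic genes. Hif1a, the oxygen-regulated factor, was at 4699, 5626 and 4522 normalized counts with negative siRNA, at 4960, 5125 and 4679 with Yap siRNA and at 4968, 5262 and 4505 with Wwtr1 siRNA. In the double knockdown it was at 7356, 7133 and 7837. The single knockdowns overlapped negative siRNA, and all 3 double knockdown libraries lay above the other 9, as they did for Slc2a1. Hif1a rose by 0.59 (limma adjusted p 0.00044, SE 0.09). Transcript levels do not measure HIF protein, which is controlled largely by its stability.

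Of 24 HIF pathway genes and targets outside glycolysis, 1 passed for Yap siRNA, 1 for Wwtr1 siRNA and 12 for the double knockdown, 7 higher and 5 lower, against 4.8%, 8.96% and 32.8% of all genes. The counts for the single knockdowns were 8 and 4 with the block, against 16% and 21.3%. The risers included Egln3, a prolyl hydroxylase that marks HIF for breakdown (1.71, limma adjusted p 0.0011, SE 0.29), and Ddit4, an inhibitor of mTORC1 (1.28, limma adjusted p 7.8e-05, SE 0.15). Ddit4 also rose with Yap siRNA (0.65, limma adjusted p 0.0295, lost without a variance trend and without negative siRNA replicate 2 or 3 or Yap siRNA replicate 1 or 2). The genes that fell included Lox, a collagen crosslinker (-0.87), and the collagen prolyl hydroxylases P4ha1 (-0.69) and P4ha2 (-0.88). P4ha2 was the gene of this list that passed with Wwtr1 siRNA (-1.28, limma adjusted p 0.0015, SE 0.18). Lox, P4ha1 and P4ha2 are also genes of collagen matrix, and the list moved in both directions.

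Myc, a factor that raises glycolytic genes in growing cells, was at 3186, 3280 and 3423 normalized counts with negative siRNA and at 1801, 2193 and 2403 in the double knockdown. It was at 2894, 2390 and 2703 with Yap siRNA and at 2565, 3060 and 3790 with Wwtr1 siRNA. Myc fell by 0.64 in the double knockdown (limma adjusted p 0.0043, SE 0.14), whereas the single knockdowns gave -0.31 (limma adjusted p 0.240) and -0.09 (0.752). Of the 7 tested genes of the MYC list, 4 passed in the double knockdown, against 32.8% of all genes. Mxd1 (1.16, limma adjusted p 0.00014, SE 0.15) and Mxd4 (0.77, limma adjusted p 0.00081, SE 0.13), which compete with MYC for its partner, rose, and Mlx fell by 0.27, a call lost in 3 of 12 fits. Mxd4 was the 1 gene of this list that passed with Yap siRNA (0.74, limma adjusted p 0.0096, lost without negative siRNA replicate 3), against 2 with the block, when only genes whose mean reached 100 were tested, or without Yap siRNA replicate 3 or double knockdown replicate 3, and none passed with Wwtr1 siRNA (0 at an unadjusted p under 0.05, also 0 with the block).

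**Figure D4:**
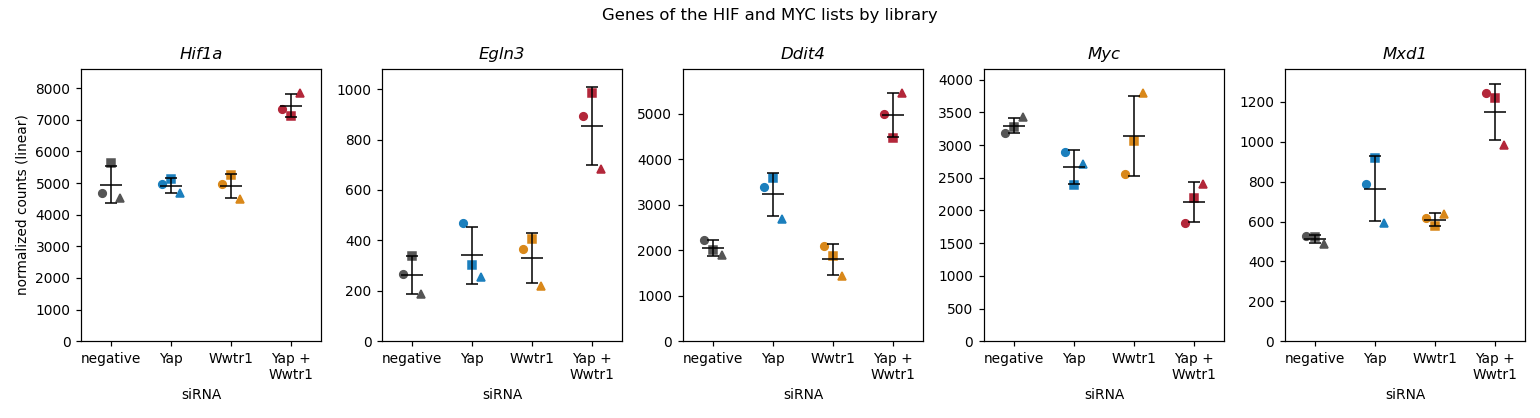
Normalized counts (linear axes from 0) of Hif1a, Egln3, Ddit4, Myc and Mxd1 in each library, by siRNA group, with the mean ± SD of 3 libraries and replicates 1, 2 and 3 as circles, squares and triangles. The double knockdown lies above negative siRNA for Hif1a (7133 to 7837), Egln3, Ddit4 and Mxd1 and below it for Myc (1801 to 2403).

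The 10 genes did not vary as one set over the libraries. Among the 45 pairs, Pgk1 and Eno1 had the highest Pearson correlation of log2 values over the 12 libraries (0.94), and it was 0.90 after group means were removed. Slc2a1 had correlations of -0.38 with Pgk1 and -0.33 with Eno1 across libraries, but 0.80 with each after group means were removed. The sign thus differed between libraries of 1 group and groups. Hk1 and Hk2 were inversely related (-0.84 across libraries, -0.66 within groups). These libraries share groups and scaling, and the values are descriptions. The genes whose pattern was most like the mean of the 10 standardised genes, among 10092 others whose mean reached 100 normalized counts, were Hdhd5 (Pearson r 0.94), Tpi1 (0.87), Gpi (0.84), Mif (0.83) and Cldnd1 (0.83) over 12 libraries.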

How the data were processed

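RNA was sequenced from 12 cultures of rat cardiac fibroblasts in 4 siRNA groups. Per the labels and the study, the authors trimmed reads (Trim Galore 0.6.5), aligned them to rn6 (HISAT2), quantified genes (StringTie) and normalized them (DESeq2). The deposited signal values are gene counts divided by 1 size factor per library. In all, 100% were whole multiples of 1 step per library (tolerance 0.01 step), with totals of 33.9 to 41.1 M steps, so single counts limit low genes only. Since these steps could not be shown to be single reads in every library, no count test was run. Deposited tables of the authors' own comparisons with negative siRNA (fold changes, p-values) were not used.

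Groups were taken from the sample titles. limma 3.58.1 in R 4.3.3 (lmFit, contrasts.fit, eBayes with trend) was run on log2(normalized count + 1) over 11871 genes with a mean of at least 10, all 12 libraries in one fit, with two-sided Benjamini-Hochberg adjustment over all genes. Fold changes are on that scale, which understates low genes. Ratios were tested by exact permutation of the F statistic in Python 3.11.15. Scripts were tested on simulated data. Same-numbered negative, Yap and Wwtr1 siRNA libraries had 9 correlations of 0.104 to 0.276 between their deviations. They were taken as paired on that ground, from the same data that were tested. No label ties a number to a litter, and libraries of different numbers were not compared. Correlations with the double knockdown ran from -0.127 to 0.180 and overlapped the 9 others.

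The 10 genes and 12 lists were chosen with earlier results of these data known. Genes named from a list were up to 3 of the largest passing changes per comparison with negative siRNA, beside Hif1a, Myc, Gapdh, Pkm, Gpi, Tpi1 and Pgam1. Other passing genes of those lists were named after their values were seen, where few passed or to show what a list held. The HIF list counts include 1 gene whose own result is not reported here. Pseudocounts, filters, TMM scaling, no trend, replicate blocks and leaving out each library were tried.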

Additional observations from a re-analysis of the deposited data

Results flagged for a closer look

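Effects of the double knockdown that differed from the sum of both single effects passed the interaction test for 4 of the 85 pathway list genes described above and for none of the 10 glycolysis genes in limma (4 at an unadjusted p under 0.05), against 1.03% of all genes. Aldoc exceeded the sum by 1.05, as log2 (limma adjusted p 0.0257, SE 0.19): it was at 316 to 388 normalized counts with Wwtr1 siRNA and at 576 to 710 in the double knockdown. Hif1a exceeded it by 0.60 (SE 0.13, limma adjusted p 0.0462). Pck2 lay below the sum, with a value of -0.75 (SE 0.12, limma adjusted p 0.0192). It was at 5128 to 5784 normalized counts with Yap siRNA and at 4658 to 5422 with Wwtr1 siRNA. It was at 4528 to 4753 with negative siRNA and at 3219 to 3922 in the double knockdown. P4ha1 also lay below the sum, falling by more than it, with -0.60 (SE 0.12, limma adjusted p 0.0455). The directions held in all 12 fits that left out 1 library, but the calls were lost in 6 of them for Aldoc, 11 for Hif1a, 2 for Pck2 and 10 for P4ha1. Without a variance trend Hif1a and P4ha1 also lost it. Groups of 3 libraries are too small for the test of a single outlying library.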

How the results depend on the processing

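The 8 passing values among the 10 glycolysis genes were recomputed under 154 alternatives: 142 gave the same call, 12 lost it and none changed sign. The losses were those named above for Eno1, Hk2 and Pfkl when 1 library was left out, and Pfkl in the double knockdown against Wwtr1 siRNA without a variance trend, where 1 of the 10 genes passed in place of 2. Values without a call gained one 22 times, 14 of them under a replicate block and 8 otherwise: Aldoa in the double knockdown 4 times, and once each Slc16a3 against Yap siRNA, the Slc2a1 interaction, Pgk1 with Wwtr1 siRNA and Pfkp in the double knockdown. Without the trend 294 genes passed with Yap siRNA and 60 in the interaction. Other pseudocounts, filters and TMM scaling moved no count of all genes or of the 10 genes by over 1.5 times. Counts of short lists did move with the filter, as given above for the MYC and pentose phosphate lists. Under TMM scaling Pfkp in the double knockdown against Wwtr1 siRNA was -0.0031 in place of 0.0077.

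A replicate block over all 12 libraries called 2 of the 10 genes and 874 of all genes with Yap siRNA. In the interaction it called 2 of the 10 (Slc2a1, Pfkl) and 231 genes. It called 3 of the 10 with Wwtr1 siRNA and 1 between Yap and Wwtr1 siRNA. Counts of all genes for those comparisons are not reported here, so 3 and 1 are not read against a background. The block without the double knockdown libraries used numbers taken as pairs from these data. It called 1904 genes and 3 of the 10 for Yap siRNA, 2527 and 3 for Wwtr1 siRNA, and 2680 and 1 between them. It changed no call among the 10 genes beyond those given above. The fit of the same 9 libraries without a block was chosen after seeing the data.

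With each library left out in turn, the genes passing ranged from 111 to 764 with Yap siRNA, 548 to 1419 with Wwtr1 siRNA, 2745 to 4054 in the double knockdown, 434 to 1409 between Yap and Wwtr1 siRNA, 758 to 1873 and 1288 to 2340 for the double knockdown against Yap and Wwtr1 siRNA, and 31 to 160 in the interaction. The 10 genes gave 0 to 0, 0 to 2, 3 to 4, 0 to 0, 1 to 3, 1 to 2 and 0 to 1 in the same order. The lowest counts of all genes came without Yap siRNA replicate 1 (Yap siRNA), Wwtr1 siRNA replicate 2 (Wwtr1 siRNA, and between the single knockdowns) and Yap siRNA replicate 3 (double knockdown against Yap siRNA). Values that changed sign were all uncalled. Against negative siRNA they were Pfkl with Yap siRNA (-0.18 to 0.034), Slc16a3 (-0.26 to 0.17) and Pfkp (-0.013 to 0.094) with Wwtr1 siRNA, and Pfkl (-0.053 to 0.15), Pfkp (-0.052 to 0.23) and Hk1 (-0.047 to 0.0072) in the double knockdown. Between Yap and Wwtr1 siRNA they were Slc16a3 (-0.34 to 0.091) and Pgk1 (-0.023 to 0.11). For the double knockdown they were Ldha (-0.068 to 0.041), Pfkp (-0.14 to 0.14) and Aldoa (-0.049 to 0.061) against Yap siRNA, and Eno1 (-0.13 to 0.036) and Pfkp (-0.10 to 0.17) against Wwtr1 siRNA. The interaction of Pfkp ranged from -0.19 to 0.088. The log2 differences in ratio between the double knockdown and negative siRNA were 0.06 to 0.37 for Hk2/Hk1, -1.01 to -0.70 for Ldha/Ldhb, 0.12 to 0.15 for Slc16a3/Slc16a1 and -0.15 to 0.27 for Pfkp/Pfkl. The causes were not tested.

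The planned edgeR and DESeq2 alternatives were not run, since whole reads were not established for every library. With 3 libraries a group an exact permutation test of 1 gene between a pair of groups cannot go below p 0.1.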
